A study of Mus musculus with 6 samples.

Results

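The Il10 locus was taken as the 20 CTBP2 binding sites, of 62236 in the deposited table, whose centres lie on chromosome 1 inside a 140 kb window around Il10. The window reaches from 67.6 kb upstream to 72.4 kb downstream of the Il10 start, and sites were picked by position alone. The assay was ChIP-seq, the sequencing of DNA that an antibody against CTBP2 pulled down from crosslinked chromatin. The cells were bone marrow-derived macrophages (cultured from mouse marrow). All cells came from wildtype male C57BL6/N mice aged 6 to 12 weeks. Of the 6 libraries, 3 came from macrophages exposed for 3 h to 100 ng/ml of LPS, a lipid of the outer membrane of bacteria. The other 3 came from macrophages given vehicle (PBS), and their treatment label states no time. The labels number the replicates without saying whether they came from separate animals or cultures, so the p-values rest on a spread among libraries that may be technical alone. Input chromatin was not analysed here. The identity of the cells could not be checked with expression markers, because binding of a single protein was measured.

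Il10 encodes interleukin 10, a secreted cytokine that restrains inflammation. Macrophages make it after bacterial products engage Toll-like receptors, and it acts through its receptor and the transcription factor STAT3 to limit the production of TNF, IL-12 and other inflammatory mediators. The gene lies in a cluster with Il19, Il20 and Il24, which encode cytokines of the same family. On its other side lies Mapkapk2, which encodes MK2, a kinase activated by p38 that acts on the stability and translation of cytokine mRNAs. In mouse macrophages the region around Il10 holds several stretches of open chromatin that are known as regulatory elements. CTBP2 does not bind a DNA sequence of its own: it is a co-repressor that transcription factors bring to DNA, together with enzymes that modify histones.

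The table names Il10 for all 20 sites but its gene positions and its site positions are on different coordinates. The gene positions are those of GRCm38. The sites are read here as GRCm39, which the submitters' processing notes name beside mm39 and mm10 without assigning them to steps. With the 225 gene starts within 6 Mb of Il10, shifts in steps of 0.25 kb were scored by how many starts had a site centre within 500 bp. A shift of -72.25 kb gave 74 starts with a site, against 26 at the best shift elsewhere, 11 with no shift and a median of 10 over all shifts. Distances below are from the Il10 start placed with this shift, to the nearest step of 0.25 kb, and coordinates of sites are the table's own. On this scale Il10 runs from 0 to 5.1 kb, and Mapkapk2 lies on the other strand between 33.9 and 78.0 kb. Il19 lies on that other strand too, between -87.2 and -74.4 kb. Of the 20 sites, 6 lay upstream of Il10, 1 in the gene, 8 between Il10 and Mapkapk2 and 5 in Mapkapk2.

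Values are the authors' normalised signal, divided by the median site value of each library and brought back to a common level. On this scale the median site had a mean of 46.6 over the 6 libraries. The low values of each library were whole multiples of 1 step within 0.1 step, for values up to 300 steps. If a step is 1 read, the libraries held 3243258 to 4553179 reads in sites, and a site of the Il10 locus held between 9 and 136 reads per library, with a median of 42. All 20 sites were 1001 bp wide. Their centres were spaced by 1.8 to 34.9 kb, with a median of 4.1 kb. A window of this length centred on a site held a median of 11 sites, and 9.62% of such windows held at least 20.

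CTBP2 signal rose after LPS at 9 of the 20 sites and at none of them did it fall by the test. The rises were at the flanks of Il10 and inside Mapkapk2, while the site in the Il10 gene itself and the strongest site of the locus did not pass. The test was limma on log2 values of all 62236 sites, with a Benjamini-Hochberg adjusted p under 0.05, and it called 16.1% of all sites higher and 13.5% lower. No site of the locus was lower at an unadjusted p under 0.05 either. The median log2 fold of the 20 sites was 0.47, with a range of -0.46 to 1.68, against a median of -0.02 and quartiles of -0.32 and 0.32 over all sites. The fold was above 0 at 16 of the 20 sites and at 48.5% of all sites. The split of the calls over all sites depends on the scaling: 54.4% of calls were higher on these values and 97.5% on the deposited values without further scaling.

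**Figure D1:**
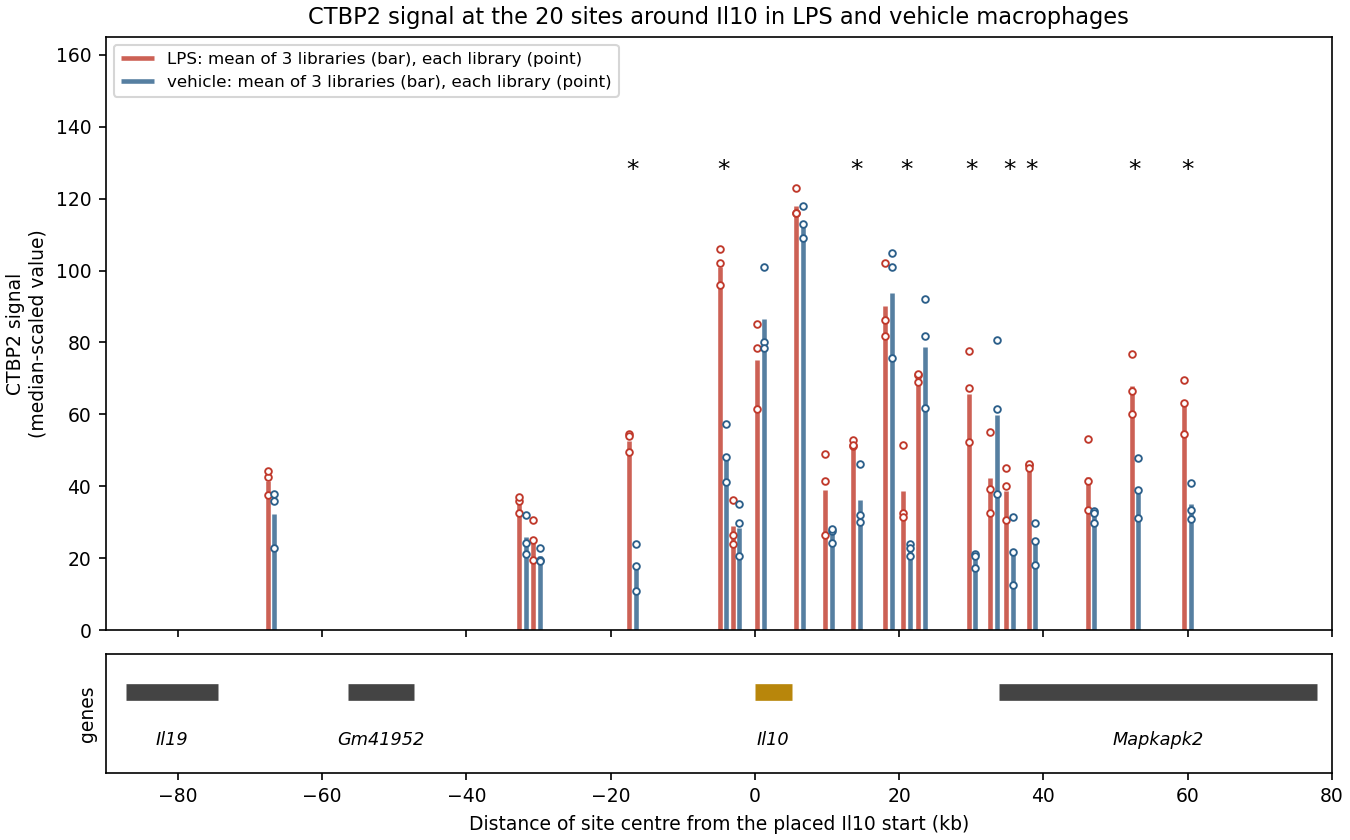
CTBP2 signal (median-scaled value, vertical axis) at the 20 sites by distance from the Il10 start in kb, with LPS left of vehicle at each site. Bars are means of 3 libraries, points are single libraries, asterisks mark the 9 sites with an adjusted p under 0.05, and the lower strip shows the genes at their placed positions. The tallest pair, at 6.2 kb, stands at 118 in LPS and 113 in vehicle libraries.

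The largest rise was 30.1 kb downstream of the Il10 start, between Il10 and Mapkapk2, at chr1:130977201-130978201. This site had 52.4, 67.4 and 77.6 in the LPS libraries, against 17.2, 21.3 and 20.5 in the vehicle libraries. Every LPS library was above every vehicle library, and the vehicle mean stood at percentile 4.86 of all sites while the LPS mean stood at percentile 68.7. The log2 fold came to 1.68 ± 0.21 (SE; adjusted p = 1.85e-07 by limma), a 3.21-fold higher signal. Taken as reads, the values were 48, 79 and 86 in the LPS libraries and 15, 25 and 17 in the vehicle libraries.

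The second rise of this size was upstream of Il10 at -17.0 kb, at chr1:130930113-130931113. It had 54.6, 49.5 and 54.1 in the LPS libraries, against 24.0, 17.9 and 10.8 in the vehicle libraries. The groups did not overlap, and in vehicle this was the weakest of the 20 sites, with 21, 21 and 9 reads on the same reading. The log2 fold came to 1.60 ± 0.25 (SE; adjusted p = 8.8e-06 by limma), or 3.02-fold. These 2 sites were also the only ones of the locus called in the authors' deposited table, with a log2 fold of 1.38 and an FDR of 0.00232 at 30.1 kb and of 1.36 and 0.00147 at -17.0 kb, where the table's own FDR called 4.01% of all sites higher and 0.37% lower.

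Closest to the gene among the rising sites was the one 4.4 kb upstream of the Il10 start, at chr1:130942738-130943738. It had 96.1, 106 and 102 in the LPS libraries, against 41.2, 57.2 and 48.1 in the vehicle libraries. In LPS this site was the second strongest of the locus, and in vehicle it was the sixth. The log2 fold came to 1.05 ± 0.17 (SE; adjusted p = 9.55e-06 by limma), a 2.07-fold higher signal. The neighbouring site 2.6 kb upstream, 1.8 kb away from it, had 24.0, 26.5 and 36.1 in the LPS libraries and 29.8, 35.0 and 20.5 in the vehicle libraries. There the groups overlapped and the log2 fold came to 0.03 ± 0.26 (SE; adjusted p = 0.94 by limma).

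The site in the Il10 gene had its centre 0.8 kb past the start, at chr1:130947895-130948895. Its values were 85.1, 78.5 and 61.4 in the LPS libraries and 80.1, 78.5 and 101 in the vehicle libraries. The groups overlapped, with the lowest value in an LPS library and the highest in a vehicle library. Its mean was 75.0 ± 12.3 in LPS and 86.6 ± 12.6 in vehicle (SD, n = 3 each), and the log2 fold came to -0.21 ± 0.17 (SE; adjusted p = 0.367 by limma). Its vehicle mean stood at percentile 80.2 of all sites, so CTBP2 signal at the gene was above the genome-wide median without LPS.

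The strongest site of the locus in both conditions lay 6.2 kb past the Il10 start, beyond the end of the gene, at chr1:130953263-130954263. It had 123, 116 and 116 in the LPS libraries and 113, 109 and 118 in the vehicle libraries. These values overlapped and differed by little within each group, and the log2 fold came to 0.06 ± 0.14 (SE; adjusted p = 0.787 by limma). With 98 to 136 reads per library this was also the most deeply covered site of the 20. Further sites that were strong in vehicle lay at 18.5, 23.1 and 33.1 kb. Their LPS means were 90.0 ± 10.6, 70.5 ± 1.17 and 42.4 ± 11.5, against vehicle means of 93.8 ± 15.7, 78.6 ± 15.4 and 59.9 ± 21.5 (SD, n = 3 each). None of these passed the test.

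At 33.1 kb, near the 3' end of Mapkapk2, the fold was the smallest of the locus. The site at chr1:130980169-130981169 had 32.7, 39.3 and 55.1 in the LPS libraries, against 37.8, 61.4 and 80.6 in the vehicle libraries. The groups overlapped, and the spread was wide within both. The log2 fold came to -0.46 ± 0.23 (SE; adjusted p = 0.147 by limma). It passed the test when vehicle replicate 1 was left out and when the replicate number was a covariate, with a log2 fold of -0.75 and -0.46. This site lies 3.0 kb from the site with the largest rise, at 30.1 kb.

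**Figure D2:**
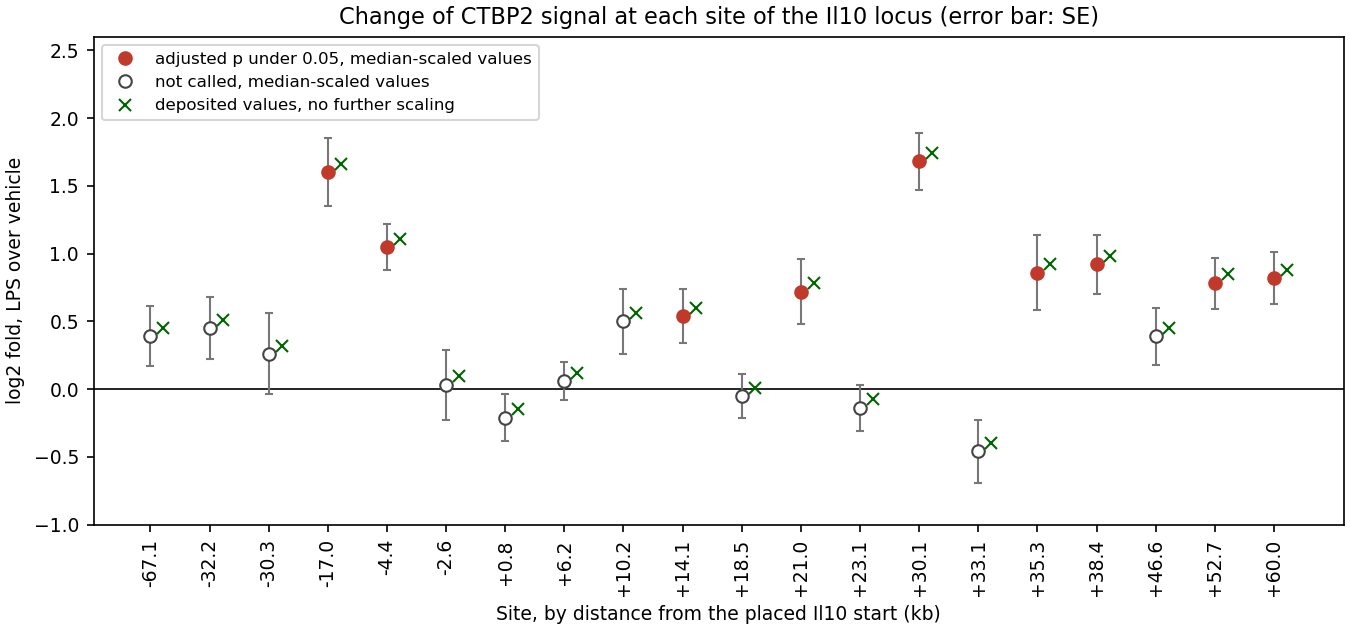
Log2 fold of CTBP2 signal, LPS over vehicle, at each site from upstream to downstream, with the SE as error bar. Red points passed the limma test on median-scaled values, open points did not, and crosses are the folds on the deposited values without further scaling. The folds at -17.0 and 30.1 kb, 1.60 and 1.68, stand above all others.

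Of the 5 sites of the window in Mapkapk2, 4 rose, beside 16.1% of all sites called higher. The window ends inside this gene, and its site at 73.0 kb is not among the 5. At 38.4 kb the values were 45.8, 46.1 and 45.1 in the LPS libraries, against 29.8, 24.7 and 18.0 in the vehicle libraries. At 52.7 kb they were 60.0, 66.6 and 76.7 in the LPS libraries, against 38.9, 47.8 and 31.3 in the vehicle libraries. At 60.0 kb they were 54.6, 63.1 and 69.5 in the LPS libraries, against 30.9, 33.3 and 40.9 in the vehicle libraries. At these 3 sites every LPS library was above every vehicle library. Their log2 folds were 0.92 (SE 0.22), 0.78 (SE 0.19) and 0.82 (SE 0.19), with limma adjusted p-values of 0.00181, 0.00153 and 0.001. The fourth, at 35.3 kb, had 30.6, 40.1 and 45.1 in the LPS libraries, against 12.6, 31.6 and 21.7 in the vehicle libraries. Here 1 vehicle library was above the lowest LPS library, and the log2 fold came to 0.86 ± 0.28 (SE; adjusted p = 0.0181 by limma). The remaining site, at 46.6 kb, had 41.5, 33.3 and 53.2 in the LPS libraries and 33.2, 29.9 and 32.5 in the vehicle libraries. It did not pass, its log2 fold being 0.39 ± 0.21 (SE; adjusted p = 0.168 by limma), although its groups did not overlap. On the deposited values without further scaling none of the 4 rising sites passed, with limma adjusted p-values from 0.426 to 0.566. There 1.89% of all sites were called higher.

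The remaining rises lay between Il10 and Mapkapk2, at 14.1 and 21.0 kb. The site at 14.1 kb had 51.3, 52.9 and 51.4 in the LPS libraries, against 32.0, 46.1 and 30.1 in the vehicle libraries, and its log2 fold came to 0.54 ± 0.20 (SE; adjusted p = 0.0354 by limma). The site at 21.0 kb had 32.7, 31.6 and 51.4 in the LPS libraries, against 20.6, 23.9 and 22.9 in the vehicle libraries, and its log2 fold came to 0.72 ± 0.24 (SE; adjusted p = 0.0235 by limma). In both the LPS libraries lay above the vehicle libraries, at 21.0 kb with 1 LPS library well above the other 2. The sites that did not pass at 10.2 kb and, far upstream, at -30.3, -32.2 and -67.1 kb were among the weaker ones. Their mean level ran from 25.1 to 41.4 in LPS and from 20.6 to 32.2 in vehicle, with log2 folds from 0.26 to 0.50. Over the whole locus, all LPS values exceeded all vehicle values at 10 of 20 sites and the reverse held at 0, against 21.6% and 20.6% of all sites.

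None of the 5 sites with the highest vehicle mean was called, and the 9 called sites had vehicle means of 17.6 to 48.8 and LPS means of 38.6 to 101. With 16.1% of all sites called higher, no call among 5 sites is near that share and is a description alone. Vehicle values enter both the level and the fold, so the 2 are linked by construction. Split by the mean over all 6 libraries, 6 of 12 sites of the locus below the median of all sites were called higher and 3 of 8 at or above it, where 16.1% of all sites were called on either side. The order of the levels was flatter after LPS: the strongest site was 4.71-fold above the weakest in LPS and 6.45-fold in vehicle. In LPS the sites from the fourth to the eighth rank, at 0.8, 23.1, 52.7, 30.1 and 60.0 kb, had means between 62.4 and 75.0 and neighbours in this order differed by less than the SD of the site at 0.8 kb, 12.3. In vehicle the same 5 sites had means of 86.6, 78.6, 39.3, 19.7 and 35.0. As the 5 were picked by their rank in LPS, their closeness there and wider spread in vehicle follow from the choice. They are a description and do not bear on how flat the levels were.

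**Figure D3:**
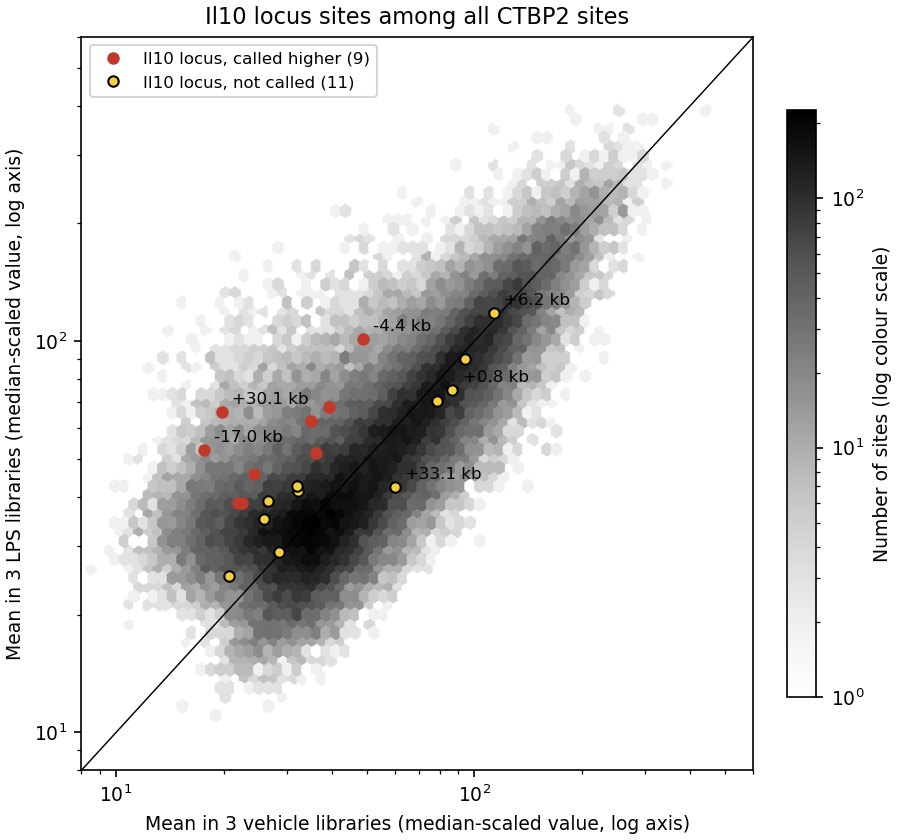
Mean CTBP2 signal of each site in 3 LPS libraries (vertical) against that in 3 vehicle libraries (horizontal), both median-scaled values on log axes. Grey hexagons count all sites in the plotted range, coloured points are the 20 sites of the Il10 locus, and the line marks equal values. The 9 called sites lie above the line at vehicle means of 17.6 to 48.8, and the site at 6.2 kb lies near the line.

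Added over the 20 sites, CTBP2 signal was 1087, 1091 and 1221 in the LPS libraries, against 824, 920 and 845 in the vehicle libraries. All LPS sums were above all vehicle sums, with means of 1133 ± 76.1 in LPS and 863 ± 50.3 in vehicle (SD, n = 3 each), a 1.31-fold difference. An exact two-sided permutation test over the libraries gave p = 0.1, the smallest that 3 against 3 allows. On the deposited values without further scaling the same exact permutation test gave p = 0.3, so the groups no longer separated fully. The 9 called sites held 44.0, 47.9 and 46.9% of the sum in the LPS libraries and 30.0, 33.0 and 28.9% in the vehicle libraries. The other 11 sites added up to 608 ± 39.8 in LPS and 598 ± 19.7 in vehicle (SD, n = 3 each). As the 9 were chosen by their rise, these sums are a description.

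**Figure D4:**
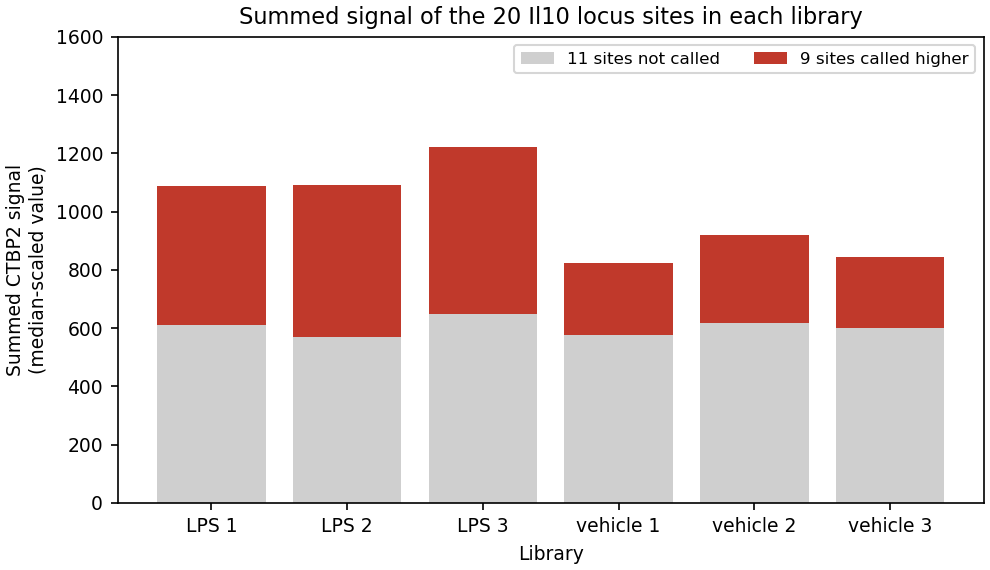
Summed CTBP2 signal (median-scaled value, vertical axis) of the 20 Il10 locus sites in each library, LPS libraries on the left and vehicle libraries on the right. Red marks the 9 sites called higher and grey the other 11, so the red part is 44.0 to 47.9% of the bar in LPS and 28.9 to 33.0% in vehicle.

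Whether sites of the locus changed relative to the site in the Il10 gene was tested with the log2 ratio of each of the other 19 sites to it within each library, which does not depend on how libraries are scaled beyond the pseudocount. At 11 of 19 sites the exact permutation p was 0.1, the smallest possible, and at these 11 the ratio was higher in every LPS library than in every vehicle library. Of the 11, 8 were sites called higher and 3 were not, the site at 6.2 kb among the latter. All 19 ratios share the same denominator, whose own log2 fold was -0.21, so they are not separate results. The share over all sites was not computed, so the count is a description. Adjusted over the 19 pairs the smallest p was 0.173, so this design cannot pass the threshold for any pair. The ratio of the site at 30.1 kb was -0.19 ± 0.51 in LPS and -2.08 ± 0.22 in vehicle, that at -17.0 kb was -0.49 ± 0.27 in LPS and -2.29 ± 0.73 in vehicle, and that at -4.4 kb was 0.44 ± 0.28 in LPS and -0.82 ± 0.32 in vehicle (log2, SD, n = 3 each). The site at -4.4 kb was thus above the gene's own site in each LPS library and below it in each vehicle library.

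The calls at -17.0, -4.4, 30.1, 38.4, 52.7 and 60.0 kb held without each single library. That at 14.1 kb was lost in 5 of 6 such fits, that at 35.3 kb in 3 and that at 21.0 kb in 2. On the deposited values without further scaling, 2 of the 9 calls held, at -17.0 and 30.1 kb, where 1.89% of all sites were called higher and 0.0482% lower. The log2 folds of the 9 were then 0.60 to 1.74, against 0.54 to 1.68 on scaled values, and their SEs were 0.45 to 0.49, against 0.17 to 0.28.

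The sites just beyond the window give its setting. Inside its left edge, the site at -67.1 kb had a mean of 41.4 ± 3.48 in LPS and 32.2 ± 8.11 in vehicle (SD, n = 3 each), and the next site outside, at -79.6 kb inside Il19, had 38.0 ± 16.5 in LPS and 21.0 ± 6.03 in vehicle. Inside the right edge, the site at 60.0 kb had 62.4 ± 7.49 in LPS and 35.0 ± 5.23 in vehicle (SD, n = 3 each), and the next outside, at 73.0 kb in Mapkapk2, had 134 ± 16.6 in LPS and 54.6 ± 12.2 in vehicle. The site at 73.0 kb lay 5.0 kb from the Mapkapk2 start. That at -79.6 kb lay 0.2 kb from an Il19 start inside the gene bounds given above, not from the bound at -74.4 kb.

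Genes of the IL-10 pathway were looked at in the same way, with sites within 20 kb of a start placed by the shift measured around each gene. Of 56 genes besides Il10, 48 could be placed and 47 had a site. With each site counted once, 70 of 227 sites (30.8%) were higher and 19 (8.37%) lower, beside 16.1% and 13.5% of all sites. On the deposited values 8 of these sites, near 6 genes, were higher, beside 1.89% of all sites. Other genes within 20 kb may own some of these sites, the sites of Mapkapk2 include members of the Il10 locus, and the sites of Nfil3 count under 2 roles.

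By role, the receptor and signalling genes Il10ra, Il10rb, Jak1, Tyk2 and Stat3 had 9 of 34 sites higher (26.5%) and 4 lower (11.8%), beside 16.1% and 13.5% of all sites, and 1 of the 34 was higher on the deposited values. Near Tyk2, a kinase bound to the second chain of the IL-10 receptor, a site had a mean of 259 in LPS and 35.1 in vehicle libraries (log2 fold 2.86, SE 0.15, limma adjusted p = 2.82e-15). Genes that respond to IL-10 or are induced with it had 28 of 57 sites higher (49.1%) and 3 lower (5.26%), and 6 were higher on the deposited values. They included Socs3, an inhibitor of cytokine signalling, with 425 in LPS and 99.2 in vehicle (log2 fold 2.09, limma adjusted p = 4.62e-14), and Ddit4, an inhibitor of mTOR signalling, with 188 in LPS and 45.1 in vehicle (log2 fold 2.04, limma adjusted p = 8.52e-12). Il1rn, which encodes the antagonist of the interleukin 1 receptor, had a site with 68.9 in LPS and 18.6 in vehicle (log2 fold 1.84, limma adjusted p = 1.44e-08). Socs3 alone held 9 of the 28 higher sites and Il1rn held 5, so the higher sites were not spread evenly over the genes. The 3 lower sites lay near Sbno2, Tnip3 and Cd163.

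Transcription factors known to act on Il10 had 19 of 86 sites higher (22.1%) and 10 lower (11.6%), shares near the 16.1% and 13.5% of all sites. On the deposited values limma called 0 of the 86 higher, the site of Batf included, and 6 were higher at an unadjusted p under 0.05. Batf, an AP-1 family factor, had a site with 332 in LPS and 156 in vehicle (log2 fold 1.09, limma adjusted p = 5.75e-08). Maf, a factor that activates Il10 in macrophages, had 3 sites and none was called, with 131 in LPS and 154 in vehicle at the one with the smallest adjusted p (log2 fold -0.23, limma adjusted p = 0.234). Kinases and regulators upstream of Il10 or of its mRNA had 15 of 50 sites higher (30.0%) and 2 lower (4.00%), and 1 was higher on the deposited values. Dusp2, a MAP kinase phosphatase, had a site 0.8 kb from its start with 400 in LPS and 118 in vehicle (log2 fold 1.78, limma adjusted p = 9.54e-12). The IL-10 family had 2 of only 4 sites higher (50.0%) and 0 lower. On the deposited values 0 of the 4 were higher, also at an unadjusted p under 0.05. Il19 and Il20 had 1 higher site each, with log2 folds of 0.79 and 0.45 (limma adjusted p = 0.0364 and 0.019). At the Il19 site the LPS and vehicle libraries overlapped. Ifnl2 and Ifnl3 shared a site that was not called.

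Elsewhere in the genome, the sites most like that in the Il10 gene were sought among 7949 sites within 0.5 of its mean log2 level and within 0.25 of its log2 fold. The 5 with the highest Pearson correlation over the 6 libraries had r = 0.983 to 0.989, as the extremes of many candidates compared over few libraries. Of these, sites could be placed 0.1 kb from the start of 4931406C07Rik, 5.6 kb from that of Dgkz and 86.7 kb from that of Cd38. The table names Il20rb and Nbdy for the other 2.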

How the data were processed

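Alignment software (BWA 0.7.17), a peak caller (MACS3 3.0.0a5) and DiffBind 3.16 are named, with no order or settings, per the submitters' processing notes. Nothing read here states if replicates were pooled for peak calling. The authors deposited 1 table with a normalised signal per site and library; its scaling is not stated in any label or header. The authors also deposited log2 concentrations and log2 folds per site, with p-values and FDR values, which are used only where named.

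Each library was divided by its median site value and multiplied by the geometric mean of the 6 medians. Medians of the deposited values were 37.1, 48.8 and 61.0 in LPS replicates 1, 2 and 3 and 35.5, 37.3 and 73.0 in vehicle replicates 1, 2 and 3. This scaling sets the median change of all sites near 0. All 62236 sites were fitted with limma 3.58.1 (R 4.3.3, trend and robust) on log2(value + 1), with 3 libraries per group, no covariate, no filter on low values and p-values adjusted by Benjamini and Hochberg's method across the table. Because 1 was added before the log2, folds of weak sites are understated. Count-based tests were not run, because the values are not read counts. The code was tested on simulated data. Named in full were all called sites, the site nearest the Il10 start, the strongest site and the one with the smallest fold. In the pathway list the 6 genes with the smallest adjusted p were named, and a few others, Maf and the family members among them, after their values were seen. The window, the lists and the tests were chosen with earlier results of these data known. Gene positions came from RefSeq on GRCm38.p6, and no sequence is printed.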

Additional observations from a re-analysis of the deposited data

How the results depend on the processing

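The count of 9 higher sites in the Il10 locus was 6 to 9 without single libraries, 6 at a threshold of 0.01, 8 to 9 with other limma options, pseudocounts, filters and scalings, and 9 with the replicate block. It was 2 on the deposited values and 2 by the authors' deposited FDR. On the deposited values the SEs of the 9 sites were larger and their folds were not smaller. The number of higher sites was 14 of 40 (35.0%) when the window was widened by 100 kb on each side. It was 5 of 11 (45.5%) when the window was narrowed to 30 kb on each side of its middle. Of all sites, 16.1% were called higher. The widened window held 1 lower site. Within the 140 kb window 1 site, at 33.1 kb, was lower with the replicate block, and 0 to 1 were lower without single libraries. Over all sites, 10034 were higher and 8409 lower. On the deposited values these were 1178 and 30, and by the authors' deposited FDR 2497 and 230, while at a threshold of 0.01 they were 6924 and 4699. Without single libraries 7691 to 10081 of all 62236 sites were higher and 6032 to 7913 lower. With the other limma options, pseudocounts, filters and scalings 9239 to 10165 were higher and 7280 to 9637 lower. With quantile normalisation more sites were lower (9637) than higher (9239). Deviations from the group mean correlated at 0.111, 0.038 and 0.214 between samples with equal replicate numbers. Between samples with unequal numbers the correlations ran from -0.205 to 0.148. A shared replicate effect is thus possible. The labels do not say that equal numbers are pairs, so the main fit did not take them as pairs. With the replicate block 11692 sites were higher and 10398 lower.

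The log2 fold of the locus sum was 0.34 to 0.44 without single libraries and 0.46 on the deposited values, where the exact permutation p was 0.3 in place of 0.1. With the replicate block it was 0.39, with an exact permutation p of 0.25, the smallest that exchange within 3 replicate numbers allows. Folds near 0 changed sign in 8 of 320 comparisons of a site with an alternative. At 18.5 kb the log2 fold was 0.01 on the deposited values and by the authors' deposited table, and -0.20 to 0.04 without single libraries. At -2.6 kb it was -0.09 with quantile normalisation, and -0.18 to 0.20 without single libraries, negative without LPS replicate 3 (-0.13) and without vehicle replicate 3. The planned count tests were not run, and pseudocounts, limma options and thresholds have no bearing on the locus sum. At 9 to 136 reads per site and library, counting error alone is large at the weakest sites.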
